A study of Mus musculus with 141 samples.

Results

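The BXD strains are recombinant inbred lines made by crossing C57BL/6J with DBA/2J mice and inbreeding the offspring, so that each line carries a fixed mosaic of the parental genomes. The comparison described here is between the older lines, whose names carry the suffix TyJ, and the newer lines, whose names end in RwwJ and which were derived from advanced intercross animals. The members were chosen from the strain names in the sample labels, and the libraries labelled with mouse numbers 443 and 886 were left out. This gave 64 libraries, out of 67 from females and 74 from males in the whole series, and 38 of its 82 strains. The TyJ set held 15 strains with 8 libraries from females and 12 from males, and the RwwJ set held 23 strains with 22 libraries from each sex. In the TyJ set 5 strains had a library of each sex, and in the RwwJ set 21 strains did. The TyJ set included the BXD24 line with the rd16 allele of *Cep290*, a gene of the primary cilium. It divides by number into 12 strains from BXD1 to BXD32 and 3 strains from BXD33 to BXD42. The RwwJ strains are numbered from BXD43 upward. All mice belonged to the Hybrid Mouse Diversity Panel, ate chow up to 8 weeks of age and then a high-fat, high-sucrose diet for another 8 weeks, and RNA was taken from inguinal white adipose tissue (iWAT), a subcutaneous fat pad. For orientation, 4 libraries of the parents, a female and a male each of C57BL/6J and DBA/2J, were set beside the strains and entered no test.

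The parental stocks kept breeding between the making of the older and the newer lines. A mutation that became fixed in a parental stock in that time can be present in the newer lines and absent from the older ones, while alleles that separated the parents from the start can be carried by either set. With few strains in a set, the share of strains that carry a given parental allele also varies between sets by descent. Set and strain ancestry cannot be told apart here, and neither can set and any other way in which the mice of the sets differed.

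Total estimated counts were between 12057946 and 35797106 in the TyJ libraries and between 25469914 and 46602779 in the RwwJ libraries, with medians of 30135628.5 and 30234451.5. At the median total, 3 counts correspond to 0.0996 CPM in the TyJ set and 0.0992 CPM in the RwwJ set, and in the shallowest TyJ library to 0.249 CPM. Levels below these cannot be told from absence, and these limits allow for counting error alone. The summed level of 4 Y-linked genes was 5.71 to 35.7 CPM in the 30 libraries labelled female and 202 to 457 CPM in the 34 labelled male. The strain labels were checked at 157 genes whose level differed at least 8-fold between the parents in each sex. Such a difference need not come from an allele of the gene. *Myh4*, a muscle gene among them, was at 37.3 and 48.6 CPM in the C57BL/6J libraries, with medians of 0.105 CPM in TyJ and 0.0987 CPM in RwwJ libraries. In the 26 strains with both sexes, the female and the male library lay on the same side of the midpoint between the parents at 86.6% to 98.1% of the 157 genes. The highest share a female library reached with a male of another strain was 81.5%, for BXD71 with BXD85, and in no strain was the share with its own male below that with another male. The sets differed in mouse number: 15 of 20 TyJ libraries were numbered below 837 and all 44 RwwJ libraries from 837 upward. The remaining 5 TyJ libraries from 837 upward came from 4 strains, BXD11, BXD12, BXD15 and BXD38.

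With sex in the model and strain as a random block (limma-voom), 704 genes were higher and 1041 lower in RwwJ than in TyJ strains at an adjusted p under 0.05, out of 18152 tested. That is 3.88% of genes in the upward and 5.73% in the downward direction, or 9.61% in all. Most differences were small: 78.7% of the higher and 77.1% of the lower genes differed by less than 0.5 on the log2 scale, while 36 higher and 60 lower genes differed by at least 1. The median log2 difference over all genes tested was 0.03. The counts leaned on single strains: without BXD12, which has a female and a male library, 217 genes were higher and 458 lower. The count of higher genes was also under 704 by more than 1.5 times without BXD49 (405), BXD24 (415), BXD62 (451), BXD87 (453), BXD60 (460), BXD21 (464) or BXD11 (469). The split between directions depended on the scale, since log2(TPM + 1) gave 5768 higher and 207 lower genes around a median shift of 0.19. Scaling to library totals gave 2382 and 554 around a median shift of 0.14, and TPM centred on the median of each library gave 412 and 3845.

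The direction of the differences varied with transcript length and GC content. Genes were ordered by transcript length and split into 5 bins. In the bin of shortest genes, with a median transcript of 1031 bases, the median log2 difference was -0.08, and 13.6% were lower against 0.95% higher in RwwJ. In the bin of longest genes, with a median of 6565 bases, the median was 0.08, and 2.43% were lower against 6.97% higher. In the bin of highest GC content 7.33% were higher, compared with 1.23% in that of lowest GC content. Each library was given a length slope, the change of its log2 CPM relative to the mean of all libraries per doubling of transcript length, and a GC slope per 10 percentage points of GC. The length slope was above 0 in 4 of 20 TyJ and 32 of 44 RwwJ libraries, with medians of -0.06 and 0.03. The GC slope was above 0 in 5 TyJ and 24 RwwJ libraries. With these 2 slopes as covariates, an alternative added after the data were seen, no gene passed the threshold in either direction with limma-voom, 1188 genes had an unadjusted p under 0.05, and the lowest adjusted p was 0.11. Adding 3 cell type scores as well left 1 higher and 4 lower genes. No call given below held with the slopes in the model, so the log2 difference with the slopes is given beside those that the account turns on. What lay behind the slopes was not tested.

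**Figure D1:**
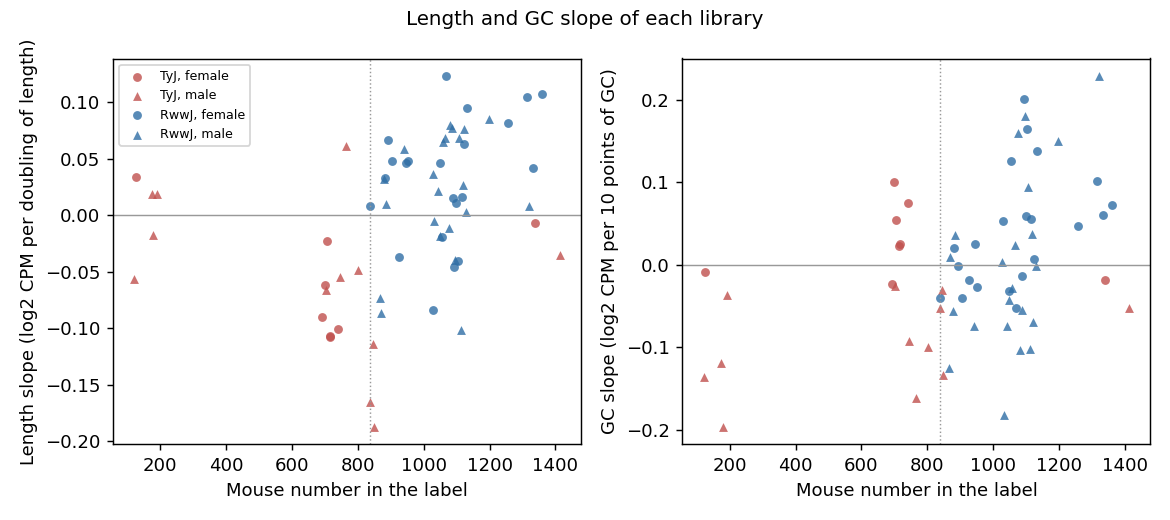
Length slope (left) and GC slope (right) of each of the 64 libraries against the mouse number in its label; circles are females, triangles males, and the dotted line marks mouse number 837. Most TyJ libraries lie below 0 in the left panel and most RwwJ libraries above it, and the 5 TyJ libraries from 837 upward all have length slopes below 0.

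**Figure D2:**
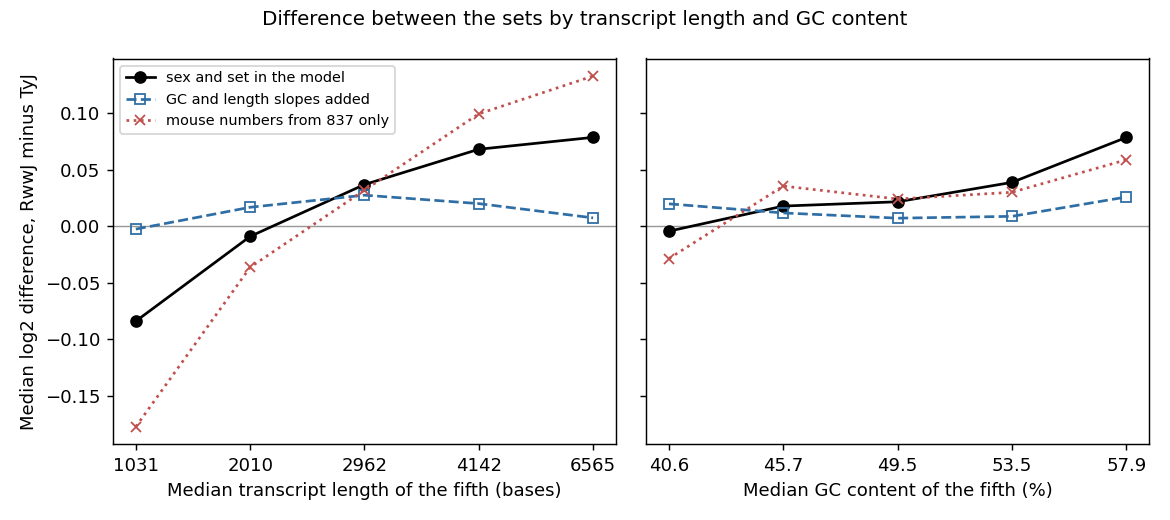
Median log2 difference between RwwJ and TyJ strains in 5 bins of genes ordered by transcript length (left) and GC content (right), with sex and set in the model, with the slopes added, and in mouse numbers from 837 only. The difference rises from -0.08 in the shortest bin to 0.08 in the longest bin, and lies between -0.003 and 0.03 in every length bin once the slopes are in the model.

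*Wdfy1*, which encodes an endosomal adaptor of Toll-like receptor signalling, gave the clearest separation among 7 genes listed as carrying mutations private to a substrain of C57BL/6J or DBA/2J. It lies at chr1:79702262-79776143 of GRCm38. In TyJ libraries its level was 27.1 CPM at the lowest, 56.5 at the median and 89.1 at the highest, and in RwwJ libraries 22.3, 28.5 and 55.1. The RwwJ libraries formed 2 separate groups, with 25 libraries at or below 28.7 CPM, 19 at or above 40.99, and none between. The C57BL/6J libraries, at 26.6 and 24.4 CPM, sat in the lower group and the DBA/2J libraries, at 47.02 and 52.3 CPM, in the upper. By strain, 13 of 23 RwwJ strains were on the C57BL/6J side of the parental midpoint but only 1 of 15 TyJ strains, BXD20. The parents differed at this gene by 0.82 in females and 1.10 in males, so that the female difference fell short of the limit of 1 in each sex used for other genes. The fitted difference was -0.69 ± 0.12 (log2, SE; adjusted p = 0.000355), a 1.61-fold lower level in RwwJ, and it held in all 38 fits that left out a strain. In mouse numbers from 837 only it was -0.65 (adjusted p = 0.045), and with the slopes -0.45.

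The other substrain genes gave no call. *Entpd4*, an endoplasmic and Golgi nucleotidase, came closest, with a median of 25.8 CPM in TyJ and 30.4 in RwwJ libraries (log2 difference 0.35 ± 0.12, adjusted p = 0.054). Here 11 RwwJ libraries exceeded the highest TyJ library, which stood at 48.4 CPM, and the C57BL/6J female and male were at 38.5 and 55.6 CPM against 26.5 and 27.7 in DBA/2J. *Gpnmb*, a transmembrane glycoprotein of macrophages and pigment cells that carries a stop codon in current DBA/2J mice, spanned 0.814 to 126.9 CPM in TyJ and 0.661 to 733 CPM in RwwJ libraries. On the DBA/2J side, where its level was low, lay 4 of 15 TyJ and 9 of 23 RwwJ strains, and the log2 difference was -0.70 ± 0.63. *Klrd1*, a natural killer cell receptor subunit, differed by -0.54 ± 0.56, *Ide*, an insulin-degrading protease, by -0.09 ± 0.07 and *Gabra2*, a GABA receptor subunit, by -0.29 ± 0.15. *Nnt*, the mitochondrial transhydrogenase with an internal deletion in C57BL/6J, is split over 2 overlapping gene models, between which reads cannot be assigned with certainty. Their summed level had a median of 21.7 CPM in TyJ and 19.6 CPM in RwwJ libraries, and the parents lay between 13.8 and 21.2 CPM, so this sum did not separate the parental alleles.

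**Figure D3:**
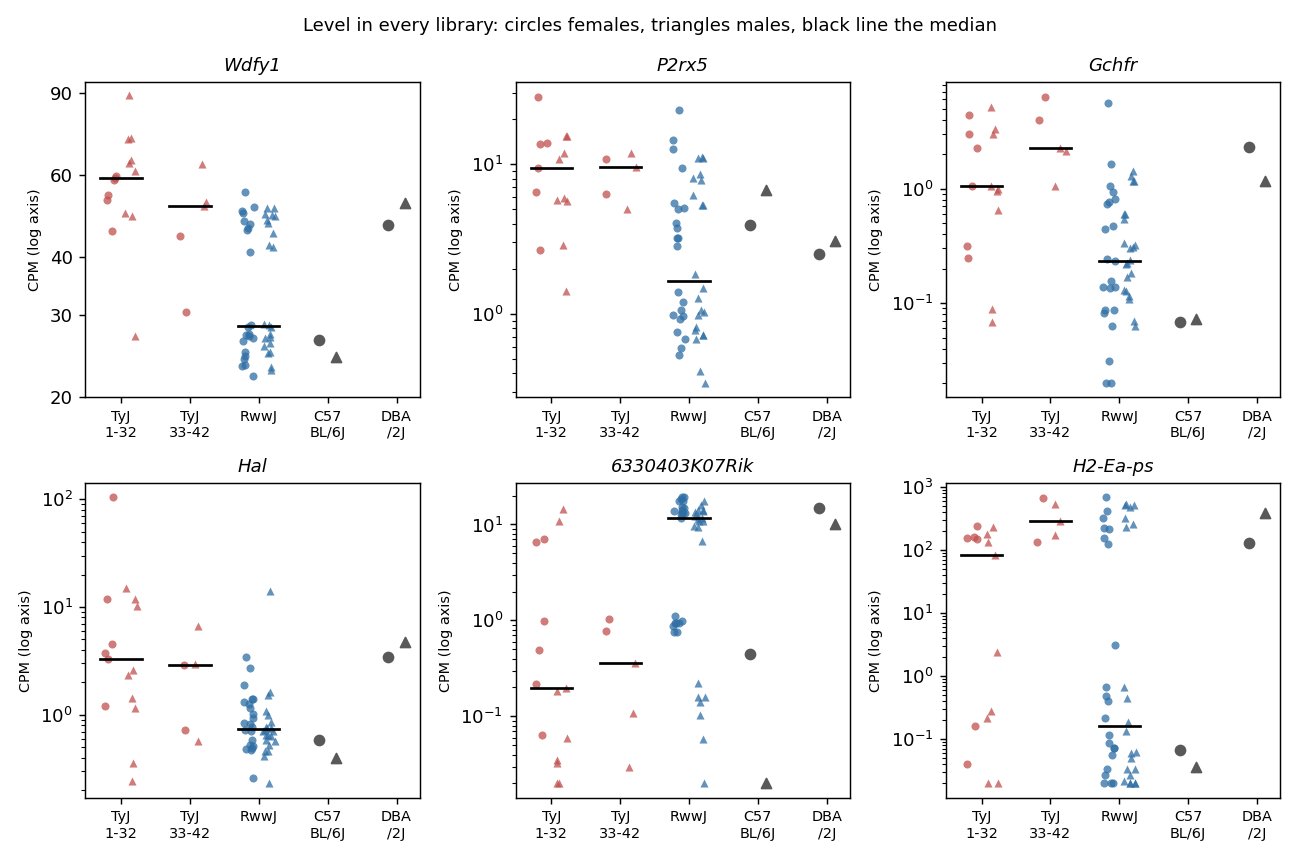
Level (CPM, log axis, values below 0.02 drawn at 0.02) of 6 genes in every TyJ library of BXD1 to BXD32, of BXD33 to BXD42, in every RwwJ library and in the 4 parent libraries. *Wdfy1* splits the RwwJ libraries into 25 low and 19 high ones, while 6330403K07Rik is high in 29 of 44 RwwJ and 4 of 20 TyJ libraries.

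The largest decreases in RwwJ strains included neighbouring genes of histidine breakdown on chromosome 10. *Hal*, which encodes histidine ammonia-lyase, the enzyme that opens the pathway, lies at chr10:93488768-93519304, and *Amdhd1*, which encodes a later enzyme of it, at chr10:93523338-93540033. *Hal* was at 0.245, 2.91 and 104.7 CPM in TyJ libraries (lowest, median, highest) and at 0.231, 0.745 and 14.2 CPM in RwwJ libraries. Its ranges overlapped, but 10 of 15 TyJ and only 2 of 23 RwwJ strains lay on the DBA/2J side, where the level was higher. The difference was -1.95 ± 0.42 (adjusted p = 0.00298), or -1.74 with the slopes. *Amdhd1* was at 0, 0.522 and 3.51 CPM in TyJ and at 0, 0.0614 and 4.01 CPM in RwwJ libraries. Its RwwJ median and both C57BL/6J libraries, at 0.0686 and 0.0728 CPM, were too low to be told from absence. It differed by -2.09 ± 0.61 (adjusted p = 0.021), and the call was lost without BXD24. In mouse numbers from 837 only its difference was -1.53 and not called. Of the 38 strains, 10 were on the DBA/2J side for both genes, 26 on the C57BL/6J side for both and 2 differed.

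*Gchfr*, at chr2:119167773-119172390, encodes the feedback regulator of GTP cyclohydrolase, which controls tetrahydrobiopterin synthesis. TyJ libraries had 0.0687, 1.59 and 6.35 CPM and RwwJ libraries 0, 0.235 and 5.63 CPM. The difference was -2.27 ± 0.46 (adjusted p = 0.00147), or -1.42 with the slopes and -3.63 in mouse numbers from 837 only. On the DBA/2J side lay 12 of 15 TyJ strains, with BXD14, BXD27 and BXD31 the exceptions, compared with 7 of 23 RwwJ strains.

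A stretch of chromosome 11 held named genes in both directions. *P2rx5*, an ATP-gated ion channel known as a surface marker of thermogenic adipocytes (chr11:73160421-73172685), was at 1.43, 9.54 and 28.2 CPM in TyJ and at 0.345, 1.66 and 22.8 CPM in RwwJ libraries. Here 21 of 44 RwwJ libraries fell below the lowest TyJ library. The difference was -1.78 ± 0.34 (adjusted p = 0.00112), or -1.25 with the slopes. In mouse numbers from 837 only it was -1.41 and no longer called. The C57BL/6J libraries were at 3.91 and 6.66 CPM and the DBA/2J libraries at 2.51 and 3.08 CPM. *Tekt1*, a tektin of cilia and flagella (chr11:72344722-72362442), was lower in RwwJ by 1.47 ± 0.44 on the log2 scale (adjusted p = 0.025), but in mouse numbers from 837 only its difference was 0.11. The uncharacterized protein-coding gene 6330403K07Rik (chr11:71031941-71033513) showed the largest increase, at 0, 0.207 and 14.4 CPM in TyJ and 0, 11.6 and 19.3 CPM in RwwJ libraries. It was bimodal, with 4 TyJ libraries at or above 6.58 CPM and 29 RwwJ libraries at or above 6.79, and 4 of 15 TyJ against 15 of 23 RwwJ strains were on the DBA/2J side. Its difference was 3.18 ± 1.04 (adjusted p = 0.0396) and was no longer called without any 1 of BXD11, BXD12, BXD14, BXD24, BXD40 or BXD85. In mouse numbers from 837 only it was 2.72 and also not called. For 6330403K07Rik and *Tekt1*, 23 of 38 strains were placed with the same parent and 15 differed. For 6330403K07Rik and *P2rx5* only 3 differed, but the parents were less than 1 apart on the log2 scale at *P2rx5* in females, so that its placement rests on a small parental difference.

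Of the other decreases, *Mup19*, a major urinary protein gene on chromosome 4 whose reads can be shared with near-identical copies, was at 0.309 CPM or above in every TyJ library, and 25 RwwJ libraries were below that. It was listed at 0 in both DBA/2J libraries, and 3 of 15 TyJ but 17 of 23 RwwJ strains were on the DBA/2J side (log2 difference -2.68 ± 0.63, adjusted p = 0.00504). *Tmc5*, a transmembrane channel-like gene on chromosome 7, had a median of 3.46 CPM in TyJ and 0.532 CPM in RwwJ libraries (-1.69 ± 0.38, adjusted p = 0.00388). In mouse numbers from 837 only its difference was -1.58 and no longer called. *Pcdhgc4*, a clustered protocadherin that shares exons with its neighbours, had medians of 34.03 and 9.48 CPM, and its difference of -1.62 ± 0.37 (adjusted p = 0.0046) shrank to -0.21 with the slopes. The 4 remaining decreases were processed pseudogenes, whose reads can come from their parent genes. Among these, Gm15920 was near DBA/2J in 7 of 15 TyJ and 1 of 23 RwwJ strains (log2 difference -4.01 ± 0.93). All 7 were among BXD1 to BXD32, and the 5 libraries of BXD33 to BXD42 did not exceed 0.469 CPM. Gm8420, Gm9892 and Gm15515 differed by -3.27, -1.64 and -1.51.

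Of the other increases, *Nt5e*, which encodes CD73, the enzyme that makes extracellular adenosine from AMP, was at 1.62, 4.90 and 16.6 CPM in TyJ and 2.24, 11.2 and 21.2 CPM in RwwJ libraries. The difference was 1.06 ± 0.22 (adjusted p = 0.0018), or 0.86 with the slopes, and it held in all fits that left out a strain. In mouse numbers from 837 only it was 0.63 and no longer called (adjusted p = 0.319). *Crym*, a thyroid hormone-binding protein, rose by 1.66 ± 0.47 (adjusted p = 0.019), but its difference was 0.17 in mouse numbers from 837 only. The call was lost without BXD12 or BXD24. *Crym*, *Tmc5* and the pseudogene *Ppp1ccb* all lie within chr7:118597297-120202111, and neighbouring genes are not independent. *Col17a1*, a hemidesmosomal collagen of epithelial cells, was higher in RwwJ in females (medians 8.33 and 21.7 CPM) and in males (0.449 and 0.921 CPM). The difference was 1.30 ± 0.31 (adjusted p = 0.00504). In mouse numbers from 837 only it was 1.05 and no longer called. *Actg2*, a smooth muscle actin, *Adamts3*, a procollagen-processing protease, and *Cd300ld3*, a myeloid immunoglobulin-like receptor, rose by 1.11, 1.15 and 1.15. Each of these 3 calls was lost without BXD12. The remaining 5 were the pseudogenes Gm5884, Gm10171, Gm10233, Gm11847 and *Ppp1ccb*, with differences between 1.01 and 2.82. Gm10171 and Gm10233 had identical values in all 64 libraries and count as 1 signal.

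Among the genes described here that are known to differ between the parents, *Glo1* and *Ahr* were called, and *Tyrp1* was too low to test. *Glo1*, the glyoxalase that detoxifies methylglyoxal and is duplicated in some inbred strains, was at 67.2, 112.2 and 201 CPM in TyJ and at 56.4, 71.96 and 152 CPM in RwwJ libraries, a difference of -0.44 ± 0.13 (adjusted p = 0.027). *Ahr*, the aryl hydrocarbon receptor, rose by 0.46 ± 0.14 (adjusted p = 0.023), with the parents at 24.97 and 28.6 CPM in females and 14.6 and 14.8 CPM in males. The call for *Glo1* was lost in 4 of the fits that left out a strain (BXD11, BXD21, BXD24 or BXD40), and that for *Ahr* in 3 (BXD12, BXD21 or BXD24). On strain means *Glo1* was not called (limma, adjusted p = 0.133). *H2-Ea-ps*, an MHC class II gene that is silent in C57BL/6J, was at most 3.12 CPM or at least 83.1 CPM in every library. It was expressed in 13 of 20 TyJ and 14 of 44 RwwJ libraries, or 9 of 15 and 8 of 23 strains. Its difference of -3.70 ± 1.47 did not pass (adjusted p = 0.093), nor did that on strain means (-2.89, limma, adjusted p = 0.28). In mouse numbers from 837 only it was -6.17 (adjusted p = 0.0066), but that fit holds only 5 TyJ libraries of 4 strains. *Ifi202b*, an interferon-inducible gene listed at 0 in both C57BL/6J libraries, was at least 15.4 CPM in 6 TyJ and at least 42.3 CPM in 22 RwwJ libraries (2.49 ± 1.88, adjusted p = 0.386), and *Alad*, an enzyme of haem synthesis, was on the DBA/2J side in 5 of 15 and 17 of 23 strains (0.38 ± 0.21). *Hc*, complement component C5, and *Myo5a*, a myosin motor, differed by 0.47 ± 0.31 and 0.16 ± 0.09. *Cep290* was at 8.82 and 8.26 CPM in the female and male of the rd16 line, within the TyJ range of 6.98 to 15.2 CPM and the RwwJ range of 5.66 to 12.7 CPM.

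**Figure D4:**
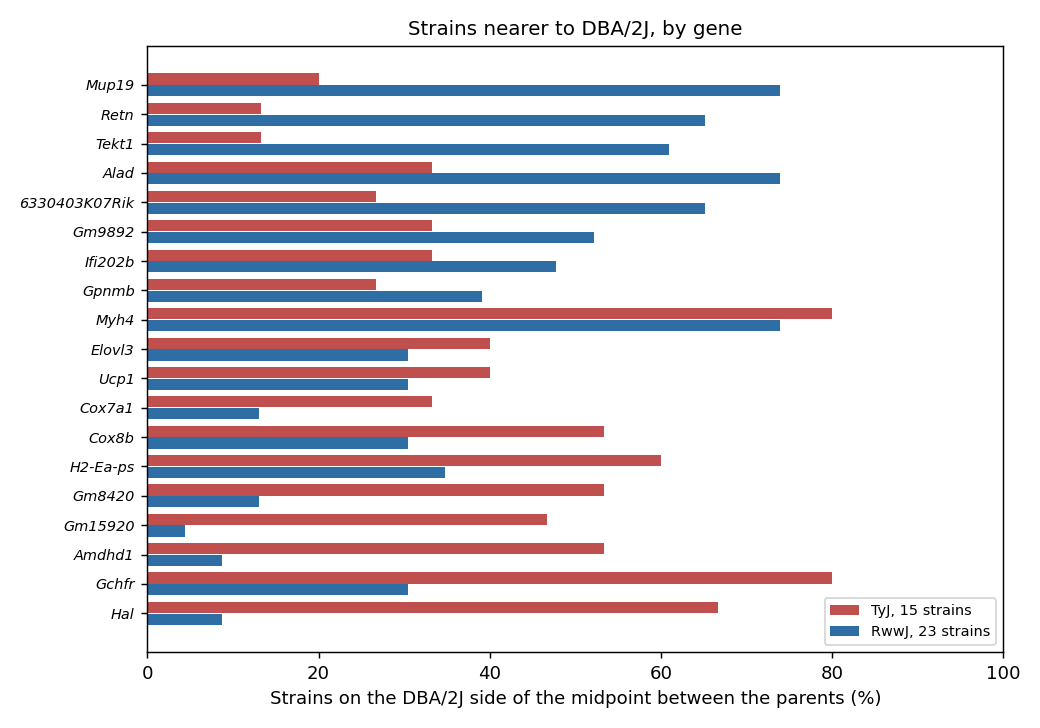
Percentage of TyJ (15) and RwwJ (23) strains on the DBA/2J side of the midpoint between the parent libraries, for the 19 named genes whose parents differed by at least 1 on the log2 scale in each sex. *Mup19*, *Retn*, *Tekt1*, *Alad* and 6330403K07Rik are nearer DBA/2J in more RwwJ strains, and *Hal*, *Gchfr*, *Amdhd1*, Gm15920 and Gm8420 in more TyJ strains. The parental difference need not come from an allele of the gene, as for the muscle gene *Myh4* or *Ucp1*.

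Placement with the parents was also taken over genes that were not chosen for a difference between the sets. The 157 genes with an 8-fold parental difference include muscle genes, such as *Myh4* and *Ckm*, and the thermogenic gene *Ucp1*. Over all 157 genes, a median of 46.7% of TyJ strains and 47.8% of RwwJ strains were on the DBA/2J side. Of these genes 13, or 8.28%, were called, 1 higher and 12 lower, beside 9.62% of the other genes. Called genes were spread over the genome, from 7.38% of the genes tested on chromosome 6 to 12.8% on chromosome 11 among autosomes. In windows of 10 Mb with at least 20 genes tested, the median share called was 9.31%. The highest share, 21.6%, was reached at chr10:90000001-100000000, which holds *Hal* and *Amdhd1*, and at chr11:70000001-80000000, which holds 6330403K07Rik, *Tekt1* and *P2rx5* and where 21 genes were higher and 22 lower. Neighbouring genes share alleles within a strain and are not independent, and the shares were not tested.

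Genes of mitochondrial respiration were among those lower in RwwJ strains. Of 21 nuclear genes of oxidative phosphorylation, 9 were lower and none higher, beside 5.73% lower and 3.88% higher of all genes tested. All 21 had a difference below 0 and the median was -0.33, beside 0.03 for all genes. *Cox5a*, *Cox6c* and *Cox4i1*, subunits of cytochrome c oxidase, had the lowest p. *Cox5a* was at 80.9, 129 and 349 CPM in TyJ and at 63.1, 84.9 and 187 CPM in RwwJ libraries (-0.58 ± 0.14, adjusted p = 0.00501), and 19 RwwJ libraries were below the lowest TyJ library. *Cox6c* and *Cox4i1* differed by -0.47 and -0.43, and the call for *Cox4i1* was lost without BXD12. With the slopes *Cox5a*, *Cox6c* and *Cox4i1* differed by -0.16, -0.09 and -0.12. *Atp5b*, the most abundant of the list, had a difference of -0.25 ± 0.12 (adjusted p = 0.17). These genes are short, with a median transcript of 1623 bases against 2962 for all genes tested. With the slopes in the model the median of the list was -0.06 and on the log2(TPM + 1) scale -0.10, where all genes had 0.19. Of 13 mitochondrially encoded genes, 1 was called, beside 9.61% of all genes tested: *mt-Nd6*, a complex I subunit (-0.66 ± 0.17, adjusted p = 0.0084). Their list median of -0.31 turned to 0.20 with the slopes, and their share of counts was 5.74% to 25.8% in TyJ and 4.72% to 19.9% in RwwJ libraries.

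Of 11 thermogenic genes, 3 were lower and none higher, beside 5.73% lower and 3.88% higher of all genes tested, with a median of -0.63. *Cox8b* and *Cox7a1*, oxidase subunits of brown and beige fat, differed by -0.98 ± 0.32 and -1.23 ± 0.38, and *Elovl3*, an elongase of cold-stimulated fat, by -2.06 ± 0.65, with adjusted p of 0.039, 0.027 and 0.034. In females the median of *Cox8b* was 43.3 CPM in TyJ and 15.7 CPM in RwwJ libraries, and in males 24.9 and 14.3 CPM. *Ucp1*, the uncoupling protein of brown fat, ranged from 0 to 2680 CPM in TyJ and from 0 to 984 CPM in RwwJ libraries, and its difference of -1.71 ± 0.96 did not pass (adjusted p = 0.24). Of the 38 fits that left out a strain, *Cox8b*, *Elovl3* and *Cox7a1* lost their call in 12, 6 and 4, in each case also without BXD12. None of the 3 was called on strain means (limma, adjusted p = 0.078, 0.161 and 0.070). The list median was -0.36 with the slopes. Of 9 genes of fatty acid oxidation 2 were lower, *Acadl*, a long-chain acyl-CoA dehydrogenase, by 0.53 ± 0.15 and *Slc25a20*, the carnitine-acylcarnitine carrier, by 0.51 ± 0.15 (adjusted p = 0.016 and 0.024). The first call was lost without BXD12 and the second without BXD12, BXD14 or BXD21, and the list median of -0.47 was -0.11 with the slopes.

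None of 10 lipogenic, 6 lipolytic and 7 triglyceride synthesis genes passed in limma-voom, where 9.61% of all genes tested did. At an unadjusted p under 0.05 there were 1, 1 and 2, and edgeR, which leaves out the strain, called 1, 2 and 2. *Scd1*, the stearoyl-CoA desaturase, had medians of 25740 and 24650 CPM and a difference of -0.03 ± 0.23. Of 10 adipocyte genes only *Retn*, the adipokine resistin, was called, at 271, 482 and 1029 CPM in TyJ and 140, 326 and 662 CPM in RwwJ libraries. It was lower in RwwJ by 0.62 ± 0.16 (adjusted p = 0.011), and 15 RwwJ libraries were below the lowest TyJ library. By the same levels, 2 of 15 TyJ against 15 of 23 RwwJ strains were on the DBA/2J side, where the level was lower. This placement restates the difference, and whether an allele lies behind it was not tested. *Fabp4*, the fatty acid binding protein, differed by -0.42 ± 0.15 (adjusted p = 0.057). Among 7 genes of sterol synthesis, *Insig1*, a sterol sensor, and *Idi1*, an isoprenoid isomerase, were lower by 0.59 and 0.34. The call for *Insig1* was lost without BXD12 and that for *Idi1* in 6 of the 38 fits, and the list median of -0.22 turned to 0.14 in mouse numbers from 837 only. Of 5 acute phase genes tested, *Orm1* and *Saa3* were lower by 0.64 and 0.99. The call for *Saa3* was lost in 10 of the 38 fits that left out a strain and that for *Orm1* without BXD12. In mouse numbers from 837 only neither was called, with differences of -0.05 for *Saa3* and -0.55 for *Orm1*. *Saa3* was also not called on strain means.

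Several immune and stromal lists had medians above that of all genes. In the histocompatibility list 3 of 14 genes were higher and none lower, beside 3.88% higher and 5.73% lower of all genes tested. The list median was 0.42, or 0.18 with the slopes. *H2-Eb1* and *H2-Ab1*, class II chains, rose by 0.56 and 0.57, or 0.20 and 0.16 with the slopes. *H2-T23*, a non-classical class I gene, rose by 0.53, or 0.43 with the slopes. *B2m*, the common light chain, differed by 0.07 ± 0.08. The 3 called genes lie within chr17:34257689-36032855, as does *H2-Ea-ps*, and neighbouring genes are not independent. At *H2-Ea-ps*, 9 of 15 TyJ and 8 of 23 RwwJ strains were on the DBA/2J side. Whether alleles there lie behind these differences was not tested. Of 10 macrophage genes only *Csf1r*, the receptor for colony-stimulating factor 1, was called (0.53 ± 0.16, adjusted p = 0.022). Its call was lost without BXD12 or BXD40, and on strain means, and its difference was 0.17 with the slopes. The macrophage list median was 0.37, or 0.32 with the slopes. None of 12 lymphocyte genes passed in limma-voom, edgeR or DESeq2 and 0 had an unadjusted p under 0.05. Their median difference was 1.09, or 0.75 with the slopes. Their summed level ran from 12.2 to 2255 CPM in TyJ and 13.3 to 1616 CPM in RwwJ libraries, with medians of 24.1 and 87.9 CPM, and the list median was -0.40 in mouse numbers from 837 only. With the slopes and 3 cell type scores, that of lymphocytes among them, *H2-Eb1* and *H2-Ab1* differed by 0.16 and 0.12. The part of lymphocytes alone in the class II values was not tested, and more cells and more RNA per cell cannot be told apart in bulk tissue. *Pdgfra* among 7 progenitor genes, *C7* among 7 complement genes and *Egr1* and *Junb* among 7 immediate early genes were higher by 0.35, 1.10, 0.50 and 0.38. Of the 38 fits that left out a strain, *H2-Eb1*, *H2-T23* and *H2-Ab1* lost their call in 5, 11 and 14, and *Pdgfra*, *C7*, *Egr1* and *Junb* in 16, 3, 17 and 21. On strain means *H2-Eb1*, *H2-T23*, *H2-Ab1*, *Pdgfra* and *C7* were not called. With the slopes *Pdgfra*, *C7*, *Egr1* and *Junb* differed by 0.26, 0.62, 0.35 and 0.25. Of 9 markers of mammary epithelium, which female fat pads hold, *Krt5* and *Krt14*, basal keratins, were higher by 1.34 ± 0.31 and 1.15 ± 0.31. Neither was called on strain means (0.62 and 0.54, adjusted p = 0.219 and 0.167) or in mouse numbers from 837 only (0.47 and 0.38), and *Krt14* was also lost without BXD12 or BXD24. *Krt18*, a luminal keratin and the most abundant of the list, differed by 0.06 ± 0.28. The median of the list was 0.46, or 0.91 with the slopes and -0.41 in mouse numbers from 837 only. The male medians of *Krt5* and *Krt14* were 0 CPM in both sets, and the female medians of *Krt5* were 15.9 and 42.7 CPM. The summed level of this list was 0.454 to 628 CPM in TyJ and 0.603 to 1390 CPM in RwwJ libraries. No gene passed in the lists of creatine cycling, fat mass expansion, mast cells, skeletal muscle, endothelium, collagens, Schwann cells, interferon response, clock or proliferation in limma-voom. At an unadjusted p under 0.05 these held 2 mast cell genes and 1 each of creatine cycling, Schwann cells and the clock, and 0 in the others. DESeq2, which leaves out the strain, called 4 skeletal muscle, 2 mast cell and 2 Schwann cell genes, and edgeR 1 Schwann cell gene.

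**Figure D5:**
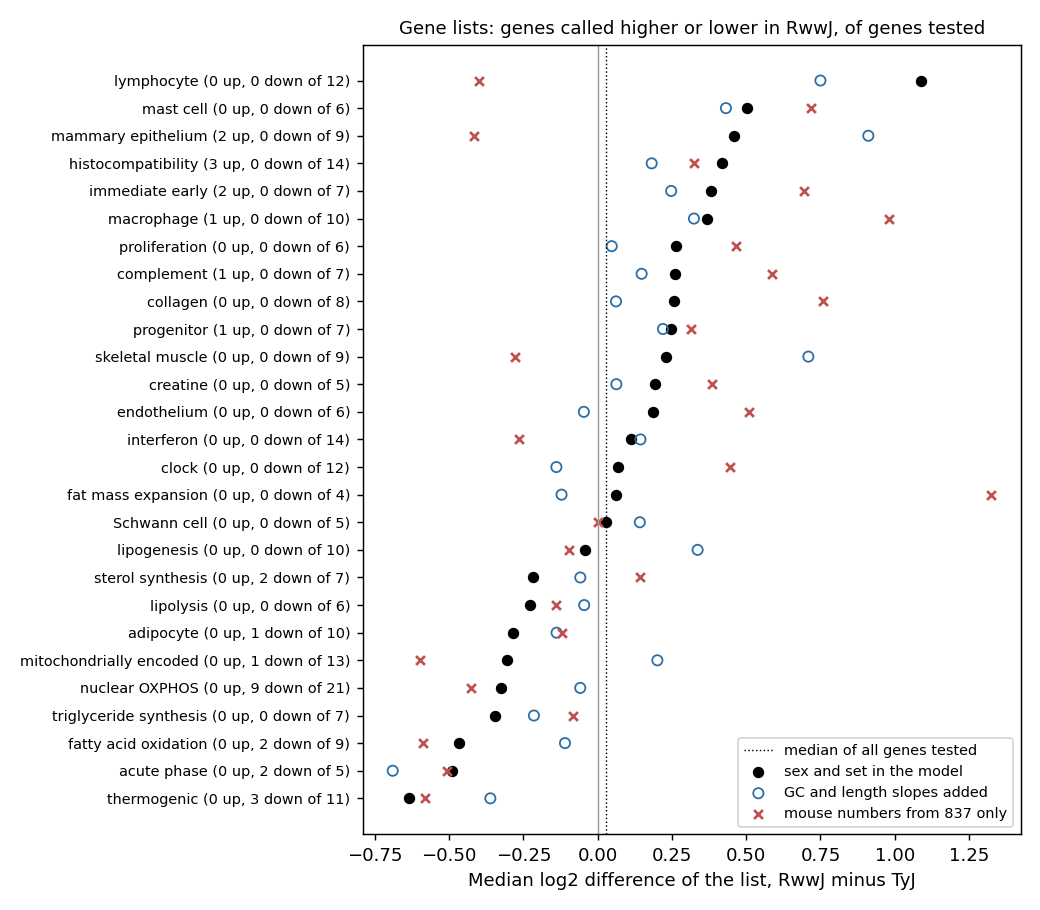
Median log2 difference between RwwJ and TyJ strains of 27 gene lists, with the numbers of genes called higher and lower of those tested; filled points have sex and set in the model, open points also the GC and length slopes, crosses mouse numbers from 837 only. The nuclear OXPHOS list has 9 of 21 genes lower at a median of -0.33, which is -0.06 with the slopes.

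The difference between the sets was tested for a difference between the sexes. No gene had an adjusted p under 0.05 for the interaction of set and sex in limma-voom, 808 had an unadjusted p under 0.05 and the lowest adjusted p was 0.106. In separate fits, 0.281% of genes were higher and 0.612% lower in RwwJ females, and 1.16% higher and 2.14% lower in RwwJ males.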

How the data were processed

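Inguinal fat RNA had been sequenced as stranded, paired-end libraries. The authors quantified transcripts with kallisto 0.46.1, per the labels on mm10, against Ensembl release 97, and summed them to genes with tximport. They deposited estimated counts, which were not normalized between libraries and of which 30.25% were not whole numbers, and TPM, which carries no depth. Of 36558 genes, 35856 had a symbol and position in GENCODE M21 (GRCm38). Kallisto divides reads among near-identical transcripts, so pseudogenes and gene families are uncertain.

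Estimated counts were rounded and kept by filterByExpr (18152 genes), scaled by TMM and tested with limma-voom (limma 3.58.1, edgeR 4.0.16, R 4.3.3) in the model ~ sex + set. Strain was a random block (consensus correlation 0.318), since a strain belongs to 1 set and its female and male libraries are not independent. Libraries of 1 set and sex are different strains, but the fit holds both sexes of a strain under 1 correlation for all genes. Where a gene follows the strain more closely than that, its p-value can be too small. On strain means (limma) the adjusted p was 0.027 for *P2rx5*, 0.0089 for *Wdfy1* and 0.016 for *Gchfr*. P-values were adjusted by Benjamini-Hochberg over all genes, and an adjusted p under 0.05 was called. CPM are TMM-scaled. A strain was placed by its mean distance from the sex-matched midpoint of log2 CPM between the parents, each a single library per sex. Transcript length and GC content were those of the longest annotated transcript, protein-coding where there is one. Slopes used 11831 genes above a mean log2 CPM of 2.

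The set rule, gene lists and tests were chosen with earlier results of these data known. Named were the 12 genes per direction with the largest difference among those also called on strain means (limma), of the same direction in each sex and of at least 1 CPM in a set; all genes of the allele lists; and of each other list up to 3 called genes with the lowest p and the most abundant member. Some genes that this rule names are not reported here. On simulated counts for RwwJ against TyJ (17792 genes), 56% of 100 genes changed by 0.5 and 100% of 100 changed by 1 on the log2 scale were recovered, with 5 unchanged genes called. The simulation gave every gene the same spread between strains and libraries and held no length or GC slopes. It therefore does not give the error rate in these data. Alternatives included edgeR's quasi-likelihood test and DESeq2 1.42.0 on libraries, other scalings, filters, TPM on the log2 scale with pseudocounts of 1 and 0.1, subsets of libraries and each strain left out in turn. The alternatives with slopes, with mouse number as a covariate, with centred TPM and without the BXD14 and BXD27 females were chosen after seeing the data.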

Additional observations from a re-analysis of the deposited data

Results flagged for a closer look

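Among the 8 TyJ female libraries, 11 of 98 measures had a lowest or highest library standing apart from the other 7 by more than 0.526 of the whole range (Dixon's 95% value). About 1 in 20 such groups is picked out by chance. The BXD38 female had 30.5 CPM of *Wdfy1* against 44.4 to 59.7 CPM in the others, 39.99 CPM of *Npr3* (natriuretic peptide receptor) against 448 to 2350 CPM, and 134.9 CPM of *Hmgcs1* (cholesterol synthesis) against 422 to 814 CPM. The BXD14 female had 0.246 CPM of *Tmc5* against 1.44 to 3.71 CPM, 48.39 CPM of *Entpd4* against 24.4 to 29.8 CPM, and a mitochondrially encoded share of 25.78% against 5.74% to 14.1%. The BXD24 female had 3.996 CPM of one *Nnt* model against 10.2 to 15.7 CPM and 25.27 CPM of *Krt18*, a luminal keratin, against 84.3 to 209 CPM. The BXD6 female had 220.5 CPM of *Csf1r* against 45.2 to 82.3 CPM and 126.4 CPM of *Pdgfra* against 52.8 to 75.5 CPM. The BXD27 female had a total of 12060000 estimated counts against 26870000 or more in the others.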

How the results depend on the processing

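No paired analysis was possible because no strain belongs to both sets. Values are percentages of genes tested, higher and then lower in RwwJ. edgeR and DESeq2 on libraries, which leave out the strain, gave 8.01% and 12.4%, and 9.12% and 13.4%. Library totals gave 13.1% and 3.05%, log2(TPM + 1) 31.8% and 1.14%, log2(TPM + 0.1) 33.6% and 1.13%, and TPM centred per library 2.27% and 21.2%. Females alone gave 0.281% and 0.612%, males alone 1.16% and 2.14%, strains with both sexes 5.83% and 8.72%. Cell type scores gave 7.33% higher, and no filter 6.88% lower. The slopes left 0 and 0 in limma-voom (1188 genes at an unadjusted p under 0.05), and the slopes with scores 0.00551% and 0.022%. Leaving out 1 strain gave 1.2% to 5.44% and 2.52% to 7.91%, both lowest without BXD12. Of the 24 genes of largest difference, 17 to 24 were called with 1 strain left out, 5 with at least 10 counts in every library (fewer genes tested), 4 in females, 8 in males, 10 in mouse numbers from 837 only, 5 with mouse number as a covariate and 0 with the slopes, with or without scores. Of 51 named genes called, 22 kept the call whichever strain was left out, and 27 lost it without BXD12. On strain means 13 of the 51 lost it. These were *Glo1*, *H2-Eb1*, *H2-T23*, *H2-Ab1*, *Cox7a1*, *Elovl3*, *Cox8b*, *Csf1r*, *Krt5*, *Krt14*, *Pdgfra*, *Saa3* and *C7*.

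Directions turned as follows (log2). Slopes gave *Nnt* -0.307, *Cep290* 0.043, *Scd1* 0.224, *Pck1* 0.07, *mt-Co1* 0.201, *Myh4* 0.704, *Pecam1* -0.118, *C3* -0.095, *Nr1d1* -0.014, *Mki67* -0.054 and *Eif2s3y* 0.013. Slopes with scores gave *Nnt* -0.31, *Cep290* 0.016, *Fabp4* 0.006, *Scd1* 0.281, *Acadm* 0.013, *Pck1* 0.063, *mt-Co1* 0.231, *Npr3* 0.177, *Krt18* -0.107, *Myh4* 0.307, *Pecam1* -0.09, *C3* -0.226, *Mki67* -0.024, *Ddx3y* 0.002 and *Eif2s3y* 0.014. Scores alone gave *Scd1* 0.096, *Npr3* 0.354, *Krt18* -0.296 and *Myh4* 0.055. Mouse numbers from 837 only gave *Tekt1* 0.107, *Npr3* 1.464, *Krt18* -0.539, *Hp* 0.639, *Hmgcs1* 0.143 and *Ddx3y* 0.03, and mouse number as a covariate *Tekt1* 0.045, *Npr3* 1.414, *Krt18* -0.609, *Hp* 0.579, *Hmgcs1* 0.117 and *Ddx3y* 0.06. Library totals gave *Ide* 0.013, *Cep290* 0.014, *Scd1* 0.085, *Npr3* 0.118 and *Eif2s3y* 0.002. log2(TPM + 1) gave *Ide* 0.162, *Cep290* 0.151, *Scd1* 0.217, *Acadm* 0.038, *Npr3* 0.262, *Myh4* 0.131 and *Ddx3y* 0.011. log2(TPM + 0.1) gave *Gabra2* 0.001, *Ide* 0.177, *Cep290* 0.176, *Scd1* 0.217, *Acadm* 0.038, *Npr3* 0.268, *Myh4* 0.1 and *Ddx3y* 0.041. TPM centred gave *Adamts3* -0.035, *Nnt* -0.075, *Hc* -0.06, *Krt18* -0.074, *Nr1d1* -0.029 and *Kdm5d* -0.015. edgeR gave *Gpnmb* 0.384 and *Myh4* 0.364, and DESeq2 0.374 and 3.496. Strain means gave *Nnt* -0.033, *Krt18* -0.086 and *Myh4* 0.006. Strains with both sexes gave *Cep290* 0.041, *Npr3* 0.331 and *Nr1d1* -0.015. With mouse numbers 443 and 886, *Nnt* was -0.014, *Scd1* 0.109, *Npr3* 0.032 and *Krt18* -0.142. Females gave *Npr3* 0.068 and *Nr1d1* -0.08, males *Scd1* 0.092, no filter *Npr3* 0.009, and leaving out BXD33 to BXD42 *Nnt* -0.371. With 1 strain left out, *Nnt* ranged from -0.166 to 0.11, *Scd1* from -0.107 to 0.09, *Npr3* from -0.243 to 0.11, *Krt18* from -0.228 to 0.189, *Myh4* from -0.536 to 0.301 and *Nr1d1* from -0.005 to 0.119. Of these genes, *Tekt1* and *Adamts3* were called in the report. The cause of each change was not tested.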

Other observations

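The female and the male library of BXD38 differed at *Wdfy1*, with 30.5 CPM in the female and 52.7 CPM in the male, values that lie near the C57BL/6J and the DBA/2J libraries.

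With the GC and length slopes and 3 cell type scores in the model, 5 genes passed in limma-voom, each with an adjusted p of 0.0481. *Ccdc28a*, a coiled-coil gene on chromosome 10, was higher in RwwJ (0.67 ± 0.14). *Msh4*, a meiotic MutS homologue (-0.62 ± 0.13), the olfactory receptor *Olfr1505* (-1.20 ± 0.24) and the unnamed genes Gm47628 (-0.70 ± 0.15) and Gm47476 (-0.53 ± 0.11) were lower. These genes were named after their values were seen.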
